A study of Arvicanthis niloticus with 28 samples.

Results

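Retinal vasculature libraries of the Nile rat were ordered by how much RNA of pericyte genes they held relative to endothelial genes, and the 9 libraries with the highest ratio were set against the 9 with the lowest, out of 28 in all. The remaining 10 libraries lay between them. For each library the ratio was the mean log2(TPM + 1) of 6 pericyte genes (Pdgfrb, Rgs5, Kcnj8, Abcc9, Cspg4 and Higd1b) minus the mean of 6 endothelial genes (Pecam1, Cdh5, Cldn5, Tie1, Esam and Egfl7), where TPM is a level scaled to gene length and library size. Because the libraries were chosen by their own expression, differences in gene expression between the 2 sets are given as descriptions without p-values. Only their relation to the labels of the rats was tested.

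The Nile rat (Arvicanthis niloticus) is a diurnal rodent that can develop diabetes on standard laboratory chow. All 28 rats were wild type without treatment, 12 males and 16 females, and each gave 1 library from vessels freed of the surrounding retina by osmotic lysis and DNase. The labels give each rat's acellular capillary density and random blood glucose, and 4 rats with a density of 17 to 18 per mm2 formed the pre-dropout group against 24 of normal density below 16. The high-ratio set held 4 males and 5 females, all of normal density, and the low-ratio set held 4 males and 5 females, of which 3 were pre-dropout. Age and diet are not in the labels. The study kept its Nile rats on either a high-fiber or a high-caloric diet, and which rat had which is not known here.

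Pericytes are contractile cells embedded in the basement membrane of capillaries. They are held there by PDGF-B from the endothelium acting on their receptor PDGFR-beta, and the retina is known for a dense pericyte cover. Loss of pericytes and of endothelial cells, which leaves empty basement membrane tubes called acellular capillaries, is an early lesion of diabetic retinopathy. In bulk RNA, fewer cells of a type and less RNA per cell cannot be told apart, so the ratio is a ratio of RNA and not of cells.

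The ratio was below 0 in all 28 libraries, from −3.47 in rat T393F to −0.82 in T348M on the log2 scale. The 9 high-ratio libraries lay between −1.48 and −0.82 with a mean of −1.12 ± 0.226 (SD, n = 9). The 9 low-ratio libraries lay between −3.47 and −2.55 with a mean of −2.89 ± 0.316 (SD, n = 9). At the upper edge T411M was the last library taken, at −1.48, and T353M at −1.69 was the first left out. At the lower edge there was no gap, since T407M at −2.55 was taken and T447M at −2.54 was not.

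The order was set more by the pericyte than by the endothelial genes. The mean of the pericyte genes was 7.32 ± 0.479 (SD, n = 9) in the high-ratio and 5.95 ± 0.451 in the low-ratio libraries, a gap of 1.38 log2 units out of 1.77. The lowest high-ratio value, 6.64 in T370M, was just above the highest low-ratio value, 6.61 in T410F. The mean of the endothelial genes was 8.44 ± 0.582 against 8.84 ± 0.419, and these values overlapped between the sets. Over all 28 libraries the 2 means had a Spearman rho of 0.23, given as a description since both come from the same libraries.

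**Figure D1:**
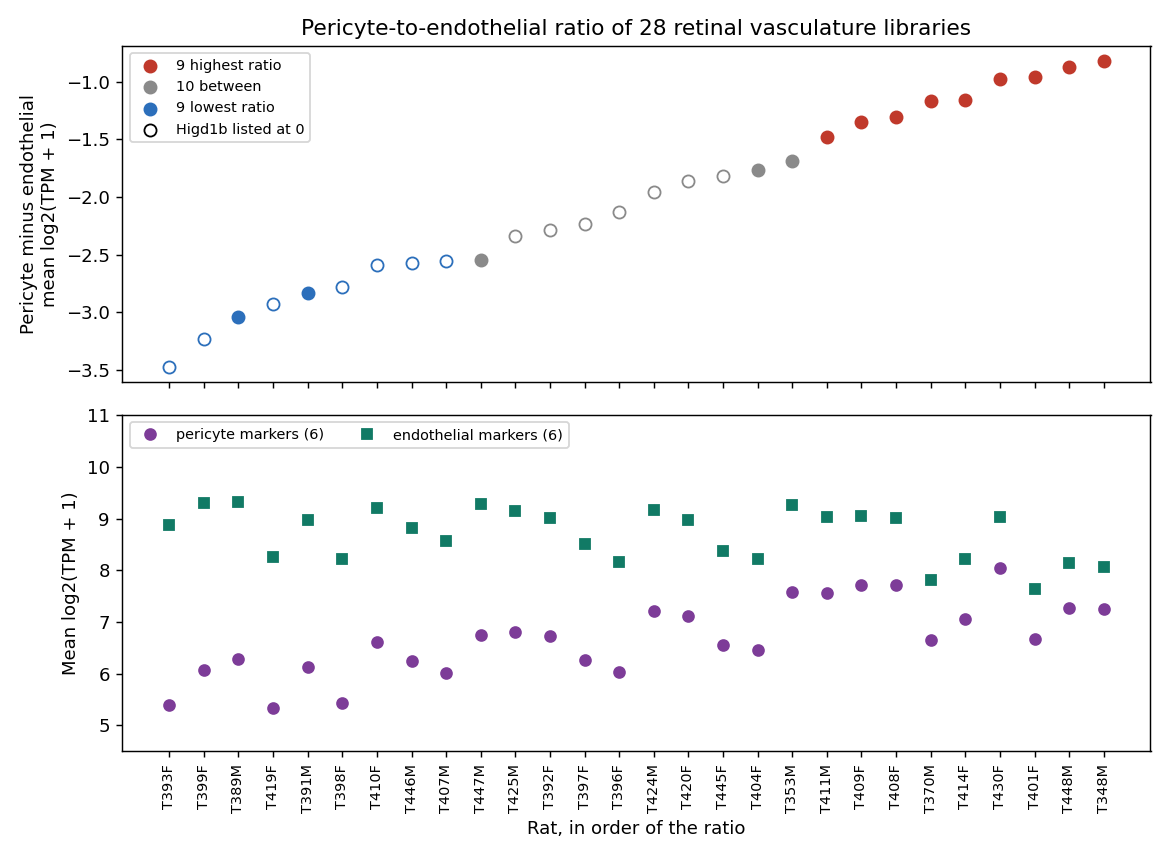
Upper panel: the pericyte-to-endothelial ratio (log2 units) of each of the 28 rats, ordered from lowest to highest, with open circles where Higd1b was listed at 0. Lower panel: the 2 means of log2(TPM + 1) that make the ratio; the pericyte mean climbs from 5.40 in T393F to 7.25 in T348M while the endothelial mean has a rho of −0.41 with the ratio, and all 9 high-ratio libraries have Higd1b above 0 against 2 of the 9 low-ratio ones.

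Higd1b, a hypoxia-inducible domain family gene used as a pericyte marker in brain and retina, carried 41.3% of the gap between the sets. It was listed at 0 TPM in 14 of the 28 libraries. Whether such a 0 is an absent transcript or a failed estimate of the comparative pipeline cannot be told from the deposited tables, and the ratio and the sets carry this limit. None of the 9 high-ratio libraries was at 0, and their values ran from 9.84 through a median of 36.5 to 292 TPM. Among the low-ratio libraries 7 of 9 were at 0, with T389M at 18.4 and T391M at 20.03 TPM. Of the 10 libraries between, 7 were at 0. The zeros did not follow depth: the libraries at 0 had a median of 4952237 counts against 3643722 where Higd1b was above 0, and T424M, the deepest library with 10029198 counts, was at 0 with 6083 counts of Pdgfrb. Across the 28 libraries Higd1b had a rho of 0.03 with the mean of the other 5 pericyte genes, whereas each of Pdgfrb, Rgs5, Kcnj8 and Abcc9 had between 0.59 and 0.70 and Cspg4 0.28.

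Egfl7, which encodes a protein secreted by endothelial cells, held a similar place on the endothelial side. It carried 10.96% of the gap and had a rho of −0.09 with the mean of the other 5 endothelial genes, which had 0.71 to 0.80 each. Its TPM ran from 4.95 through a median of 16.8 to 50.5 in the high-ratio libraries and from 17.4 through 39.1 to 84.8 in the low-ratio libraries. When the ratio was computed without Higd1b, 5 of the 9 high-ratio and 7 of the 9 low-ratio libraries stayed in their set. Without both genes, 5 and 8 stayed, and the gap between the original sets shrank to 1.01 log2 units. Leaving out any other marker kept 8 or 9 in each set, and under none of these settings did a library change from one set to the other. The other 10 markers varied with those of their own cell type, Cspg4 the least.

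The other 5 pericyte markers were each moderately higher in the high-ratio libraries. Abcc9 and Kcnj8, the subunits of the ATP-sensitive potassium channel of mural cells, had medians of 164 and 176 TPM against 88.5 and 88.3. Abcc9 ran from 84.6 to 289 TPM in the high-ratio and from 38.9 to 157 in the low-ratio libraries, and Kcnj8 from 62.6 to 211 against 50.9 to 153, so both overlapped. Rgs5, a regulator of G protein signaling abundant in pericytes, had a median of 7370 TPM against 4758. Pdgfrb, the receptor for PDGF-B, had a median of 110 TPM against 62.8, and Cspg4, the NG2 proteoglycan of pericyte surfaces, 21.9 against 14.6. These 5 genes carried 6.68 to 8.65% of the gap each.

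Of the endothelial markers Egfl7 differed most, as given above, by −1.16 in the mean of log2(TPM + 1), and the other 5 by less. Cdh5, the cadherin of endothelial junctions, had a median of 492 TPM in the high-ratio and 621 in the low-ratio libraries, and Pecam1, an adhesion molecule of the same junctions, 374 against 523. Cldn5, the main claudin of the blood-retinal barrier, had 25502 against 20153 TPM. On the log2(TPM + 1) scale the differences of means for these genes were −0.03, −0.09 and −0.23. Tie1, an endothelial receptor tyrosine kinase, and Esam, a junctional adhesion molecule, differed by −0.51 and −0.33 on the same scale.

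**Figure D2:**
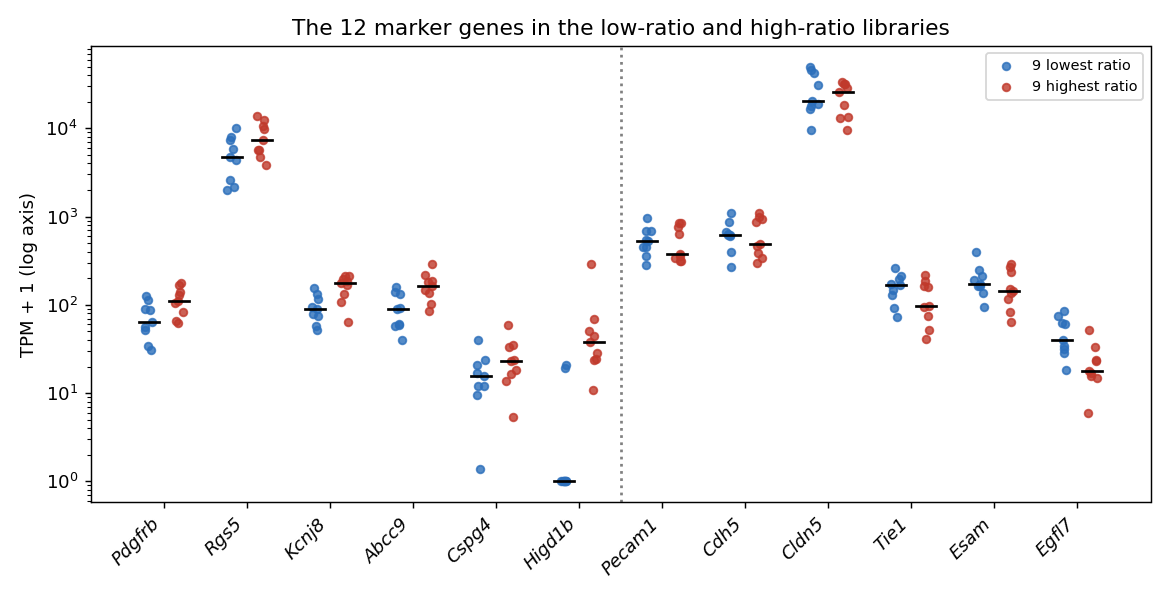
TPM + 1 on a log axis for the 6 pericyte genes (left of the dotted line) and 6 endothelial genes (right), with a point for each of the 9 low-ratio (blue) and 9 high-ratio (red) libraries and a bar at each median. Higd1b is the gene that differs most, with 7 low-ratio libraries at 0, and Egfl7 is the endothelial gene with the largest difference, a median of 16.8 against 39.1 TPM.

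Totals ran from 153108 counts in T410F, a low-ratio library, to 10029198, with medians of 3667305 in the high-ratio and 4290933 in the low-ratio libraries. A count of 0 allows up to 19.6 CPM (counts scaled to library size) in T410F and 0.299 CPM in the deepest library, counting error only. The ratio had a rho of −0.08 with total counts, −0.08 with the share of mitochondrial transcripts, 0.07 with the share of rod and cone transcripts, −0.21 with that of inner retinal neurons and 0.28 with that of red cells. Summed rod and cone TPM ran from 273 to 12179 in the high-ratio and from 595 to 3759 in the low-ratio libraries. The highest of these was T370M, a high-ratio library.

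Genes outside the ratio were compared as CPM, scaled between libraries by the trimmed mean of M values (TMM), and as log2 fold changes of high-ratio over low-ratio libraries with their standard errors from an edgeR fit. Of 11020 genes with enough counts, 358 (3.25%) were at least 2-fold higher in the high-ratio libraries and 463 (4.2%) at least 2-fold lower. No gene, 0.0% in either direction, was at least 2-fold different without overlap between the 9 and 9 values. In each of 81 pairs of a high-ratio and a low-ratio library the CPM can be ordered, and 143 genes (1.3%) were higher and 112 (1.02%) lower in at least 80% of the pairs. The median log2 fold change over all genes was −0.03.

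Pericyte genes that the ratio did not use were mostly higher in the high-ratio libraries. Of 22 listed, 19 were in the files and 18 had enough counts, and 16 of these (88.9%) had a fold change above 0, against 47.6% of all genes. Their median log2 fold change was 0.60. In at least 80% of the pairs 5 of them (27.8%, against 1.3% of all genes) were higher, including Notch3, S1pr3, Ednra and Ebf1. At least 2-fold higher were 3 of 18, against 3.25% of all genes, and 1 of 18, Art3, was at least 2-fold lower, against 4.2%. The mean of log2(CPM + 1) over the 18 genes averaged 5.66 in the high-ratio, 5.34 in the middle and 5.13 in the low-ratio libraries. Summed TPM of the 19 genes had medians of 2607, 2900 and 1797 in the same order, so by that measure the middle libraries were highest.

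Notch3, the Notch receptor of mural cells, ran from 221 through a median of 565 to 1049 CPM in the high-ratio libraries and from 150 through 263 to 444.96 in the low-ratio libraries. The upper values stood clear, since 6 of the 9 high-ratio libraries were above every low-ratio library. Its log2 fold change was 1.06 ± 0.30 (SE, n = 9 and 9), with 86.4% of the pairs in order. S1pr3, a sphingosine-1-phosphate receptor, had a smaller but steadier difference, from 143 through 214 to 319 CPM against 71.9 through 121 to 207. Its log2 fold change was 0.75 ± 0.25, and 88.9% of the pairs were in order. Ednra, the endothelin A receptor through which mural cells constrict, ran from 24.2 through 51.7 to 80.4 CPM against 0.170 through 17.7 to 37.9, a log2 fold change of 1.32 ± 0.57.

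Ebf1, a transcription factor of pericytes, had a log2 fold change of 0.69 ± 0.29. Anpep, an aminopeptidase of the pericyte surface, and Vtn, the gene of vitronectin, had 0.87 ± 0.45 and 0.44 ± 0.32. Atp13a5, a transporter gene specific to pericytes of the nervous system, had 1.15 ± 0.98, with values of 0 in both sets. Foxc1, a forkhead factor, went the other way by −0.23 ± 0.50. Art3, an ADP-ribosyltransferase family gene, had the largest difference of the list and in the opposite direction, −2.89 ± 1.25. That value came from 3 low-ratio libraries, T393F at 85.3, T389M at 105 and T391M at 85.9 CPM, while the other low-ratio libraries lay between 0 and 7.16 and the high-ratio libraries between 0 and 13.4 CPM.

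Contractile genes of vascular smooth muscle went with the pericyte genes, and several of them are also active in pericytes of arteriolar branches. Of 16 listed, 12 had enough counts and 11 were above 0, against 47.6% of all genes, with a median log2 fold change of 0.65. The mean of log2(CPM + 1) over these 12 genes averaged 6.59 in the high-ratio and 5.95 in the low-ratio libraries. It averaged 6.63 in the 10 libraries between, so the level was not particular to the high-ratio set. Myh11, the smooth muscle myosin heavy chain, ran from 313 through 614 to 856 CPM in the high-ratio libraries and from 61.3 through 408.6 to 738 in the low-ratio libraries, a log2 fold change of 0.64 ± 0.33. Acta2, smooth muscle actin, had 0.66 ± 0.39, and Mylk, myosin light chain kinase, 0.70 ± 0.37. The largest differences of the list were those of Synpo2, an actin-binding protein of contractile cells, at 1.19 ± 0.64, and Casq2, a calcium store protein of muscle, at 1.04 ± 0.76. Tagln, Cnn1, Pln and Actg2 had too few counts. Of fibroblast genes 7 were measured, with 5 above 0 and a median of 0.52. The largest differences were those of Pdgfra, the PDGF receptor of fibroblasts, at 1.31 ± 0.89, and Dcn, the proteoglycan decorin, at 0.88 ± 0.92. The type I collagen gene Col1a2 had 0.52 ± 0.32. Pdgfra was at 199 CPM in T348M, with medians of 25.9 and 15.9 CPM in the high-ratio and low-ratio libraries. For Dcn the high-ratio median was lower, 5.81 against 12.9 CPM, with 55.6% of the pairs in order. With Higd1b left out of the ratio Dcn had 0.03 and the fibroblast median was 0.12. Within the 10 libraries between, 1 of the 7 fibroblast genes had a rho with the ratio above 0.

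**Figure D3:**
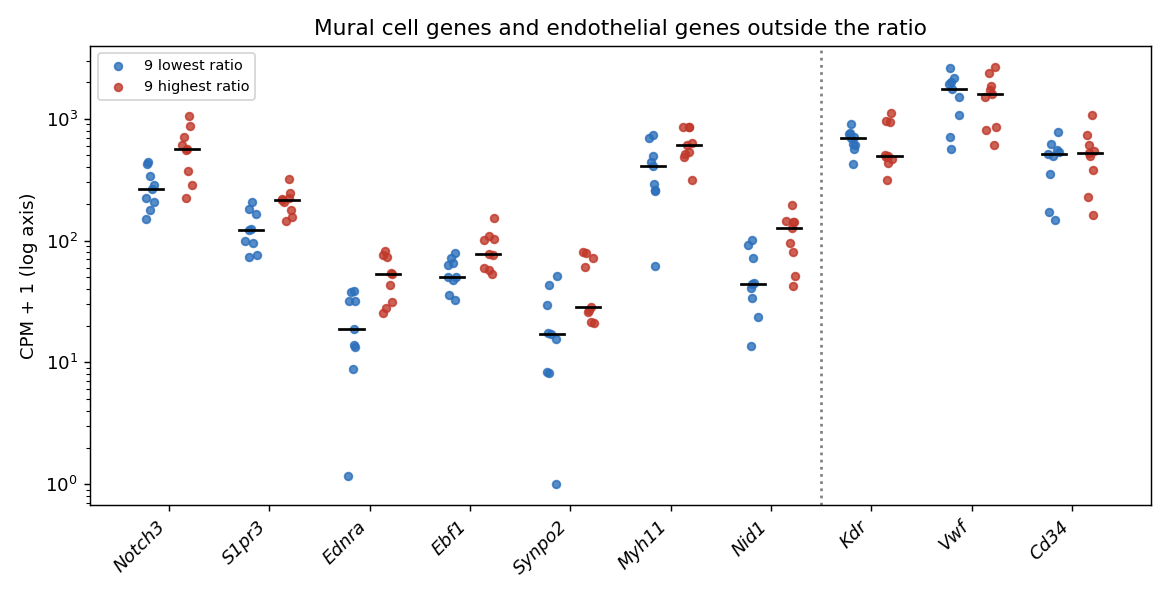
CPM + 1 on a log axis for genes outside the ratio, with a point for each of the 9 low-ratio (blue) and 9 high-ratio (red) libraries and a bar at each median. Notch3, S1pr3, Ednra, Ebf1, Synpo2, Myh11 and Nid1 (left of the dotted line) have higher medians in the high-ratio libraries. Of the endothelial genes Kdr, Vwf and Cd34 (right), Kdr has a lower median there. The high-ratio and low-ratio values overlap for every gene shown.

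Endothelial genes outside the ratio showed no common direction. All 20 listed genes were measured, 10 were above 0 (47.6% of all genes were) and 10 below, and the median log2 fold change was 0.01. None was at least 2-fold different, against 3.25% higher and 4.2% lower over all genes, a share too small to tell apart in 20 genes. Kdr, the main VEGF receptor, ran from 314 through 490 to 1122 CPM in the high-ratio and from 424.05 through 693 to 898 in the low-ratio libraries, a log2 fold change of −0.08 ± 0.26. Vwf, the gene of von Willebrand factor, had −0.03 ± 0.33. The largest differences were those of Sox17, a transcription factor of arterial endothelium, at 0.57 ± 0.61, and Podxl, a sialomucin of the luminal surface, at −0.39 ± 0.37.

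Barrier and transporter genes lay equally close to 0, with 11 of 19 above it, against 47.6% of all genes, and a median of 0.02. Slc2a1, the glucose transporter of barrier endothelium, had 0.02 ± 0.31, and Mfsd2a, the lipid transporter whose expression in brain endothelium depends on pericytes, 0.16 ± 0.31. Slc16a1, a monocarboxylate transporter, was the lowest at −0.60 ± 0.33 and Slc38a5, an amino acid transporter, the highest at 0.56 ± 0.51. Among arterial and venous genes 2 of 8 were above 0, Nr2f2, a venous transcription factor, at 0.72 ± 0.35 and Hey1, a Notch target of arteries, at 0.48 ± 0.37, and the median was −0.07.

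The signals that pass between the 2 cell types had differences in both directions. Of 20 genes 12 were above 0, against 47.6% of all genes, and the median was 0.15. None was at least 2-fold different, against 3.25% higher and 4.2% lower over all genes. Pdgfb, the ligand that endothelial cells release for Pdgfrb, had medians of 48.0 and 46.2 CPM and a log2 fold change of 0.10 ± 0.44. Angpt2, the endothelial antagonist of the Tie2 receptor, had 0.07 ± 0.31, and Angpt1, its agonist from mural cells, 0.20 ± 0.81. Jag1, a Notch ligand, had −0.43 ± 0.32 and Cdh2, the N-cadherin that joins pericytes to endothelium, −0.32 ± 0.24. The largest differences were those of Ednrb, the endothelin B receptor, at 0.74 ± 0.50, and Pdgfa, another PDGF ligand, at −0.68 ± 1.03.

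In the basement membrane that both cell types share, 8 of 15 genes were above 0, against 47.6% of all genes, and the median was 0.01. Nid1, which encodes the linker protein nidogen-1, stood apart from the others. It ran from 41.2 through 125 to 196 CPM in the high-ratio libraries and from 12.5 through 42.7 to 101 in the low-ratio libraries, with 86.4% of the pairs in order and a log2 fold change of 1.16 ± 0.38. Lamc1, the laminin gamma-1 chain, had 0.57 ± 0.31, whereas the collagen IV genes Col4a1 and Col4a2 had 0.28 ± 0.38 and −0.07 ± 0.28.

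Of the genes of neighbouring cells, all 17 measured rod and cone genes were above 0, against 47.6% of all genes. The median log2 fold change was 0.96, but this rested on T370M. Without that rat 10 of 17 were above 0 and the median was 0.06, and with all 18 libraries the median share of pairs in order was 50.6%. Pde6c, the cone phosphodiesterase, was at 355 CPM in T370M and at no more than 67.0 CPM in the other high-ratio libraries, and Pde6g, a rod phosphodiesterase subunit, had 1.71 ± 1.23. Inner retinal neuron genes were lower for 18 of 21, with a median of −0.39, and Calb1, a calcium-binding protein of inner neurons, had −1.31 ± 1.10. Thy1, a ganglion cell gene, had 1.11 ± 0.75, which came from T414F at 155 and T401F at 106 CPM, and turned to −0.27 by log2(TPM + 1) with 46.9% of the pairs in order. Müller glia and astrocyte genes were above 0 for 11 of 16 with a median of 0.28, led by Slc1a2, a glutamate transporter, at 1.32 ± 0.96 and Gfap, an intermediate filament of astrocytes, at 0.88 ± 0.61. Their part in the mural gene differences was not tested. Without T370M the medians of the other pericyte and the smooth muscle genes were 0.68 and 0.73.

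Hypoxia genes were above 0 for 9 of 11, against 47.6% of all genes, with a median of 0.25. They were led by Bnip3 at 0.39 ± 0.27 and Ldha, lactate dehydrogenase A, at 0.36 ± 0.21. Immediate early genes had 4 of 10 above 0 and a median of −0.09, with Egr1 at −0.88 ± 1.26, which turned to 0.25 without Higd1b and Egfl7, and Fos at −0.45 ± 0.89, which turned to 0.82 by log2(TPM + 1) with 60.5% of the pairs higher in the high-ratio libraries. Mitochondrially encoded genes had 1 of 6 above 0 and a median of −0.09, with mt-Co3 at −1.98 ± 1.19 and mt-Atp6 at −1.22 ± 0.82. Only 3 of 16 microglia and macrophage genes had enough counts, with Ctss at −0.72 ± 0.95 and Cd68 at 0.53 ± 0.98. For red cells Hbb-bs, Hba-a2 and Alas2 were measured, with Hbb-bs at 0.48 ± 0.66 and Hba-a2 at 0.31 ± 0.63, and for the pigment epithelium Rdh5 alone, at −0.70 ± 1.21.

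**Figure D4:**
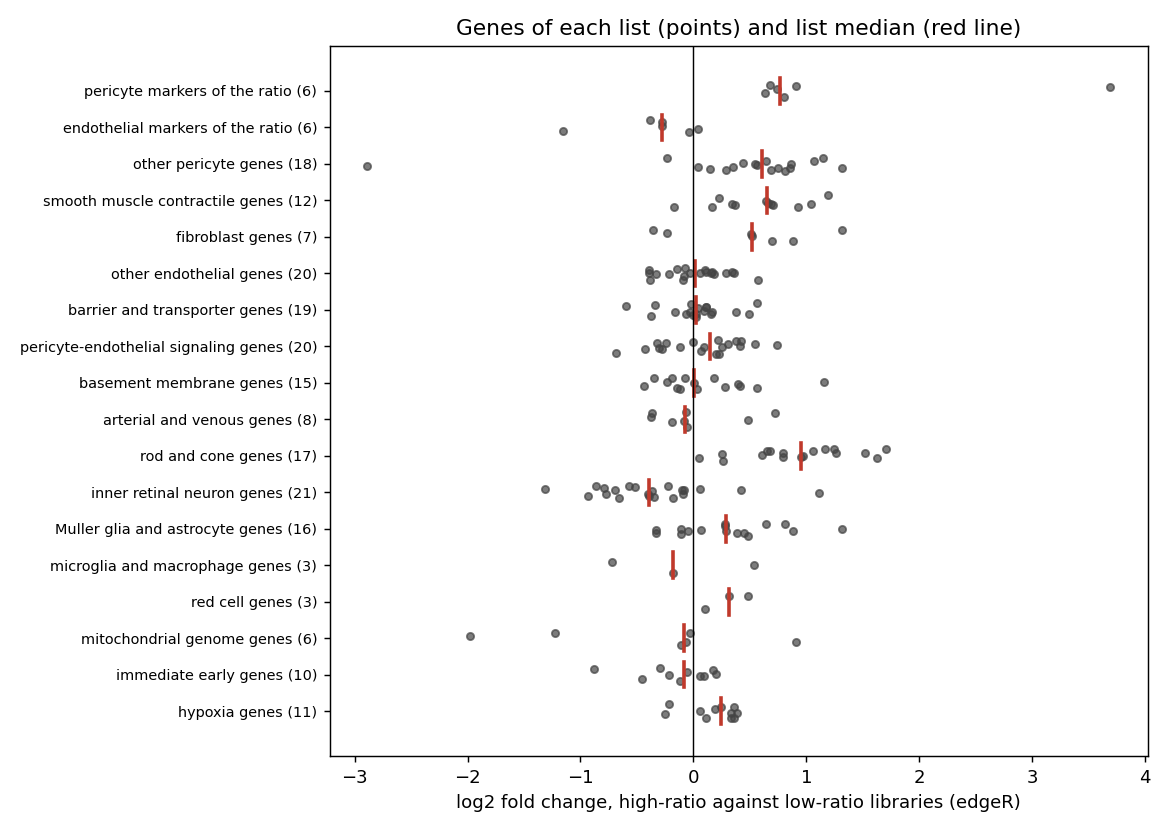
Log2 fold change of high-ratio over low-ratio libraries (x axis) for every measured gene of each list (points, number in brackets) with the list median as a red line. The medians of the other pericyte (0.60) and smooth muscle (0.65) genes lie to the right of 0 and those of the other endothelial (0.01) and barrier (0.02) genes at 0; the rod and cone median (0.96) rested on 1 rat.

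Outside the lists, the gene that separated the sets best was Daam2, a formin family protein of Wnt signaling. It ran from 50.1 through 71.6 to 130 CPM in the high-ratio libraries and from 9.60 through 30.1 to 53.3 in the low-ratio libraries, so that the sets overlapped only by T446M lying above T411M. Its log2 fold change was 1.53 ± 0.35 with 98.8% of the pairs in order, and its rho with the ratio over all 28 libraries was the highest of any gene outside it, 0.69. Dpysl3, a cytoskeletal protein of the collapsin response family, ran from 11.4 to 36.8 CPM against 0 to 17.7, with 1.90 ± 0.85. Rhoq, a small GTPase, ran from 40.6 to 100.1 CPM against 0 to 48.2, with 1.28 ± 0.55. Elavl1, the RNA-binding protein HuR, had 1.26 ± 0.67, and Adnp2 1.04 ± 0.55. Faah, which degrades the endocannabinoid anandamide, was at 0 in 5 low-ratio libraries and in 1 high-ratio library and had a rho of 0.64.

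The remaining genes of the 10 with the least overlap were Prps2, Tctn1, Cfb, Lrrc8a and Dbt, with 88.9 to 92.6% of the pairs in order. Prps2, an enzyme of nucleotide synthesis, was at 0 in 5 low-ratio libraries and Cfb, complement factor B, in 6, so their fold changes depend on how zeros are treated. Zeros were not confined to Prps2 and Cfb. The low-ratio library T399F, with 3486031 counts, was at 0 for Dpysl3, Rhoq, Elavl1 and Tctn1. As for Higd1b, absent transcripts and failed estimates cannot be told apart here.

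Among genes lower in the high-ratio libraries, Piezo2, a mechanically gated ion channel, overlapped least. It ran from 0 through 1.63 to 8.23 CPM in the high-ratio libraries and from 4.73 through 23.3 to 32.6 in the low-ratio libraries, with only 2.47% of the pairs in the other order and a log2 fold change of −2.83 ± 0.92. The lowest low-ratio value was that of T410F, the shallowest library, whose floor of 19.6 CPM lies above it. Snrpd2, a core protein of the spliceosome, ran from 0.46 through 18.1 to 33.0 CPM against 22.1 through 37.9 to 72.5, with −1.38 ± 0.55. Actn3, an alpha-actinin, had −2.04 ± 0.94, Nbeal2 −1.13 ± 0.54 and Tmcc1 −1.05 ± 0.48. T430F, a high-ratio library with 8043827 counts, gave the 0.46 CPM of Snrpd2 and had 0.23 CPM of Nbeal2 and 0.92 of Arid2. Slc2a6, a sugar transporter family gene, was at 0 in 5 high-ratio libraries, and Elf4, an ETS transcription factor, in 3. The other genes of the 10 were 4921507P07Rik, Zfp677 and Tmem186, and the lowest rho values with the ratio were those of Secisbp2 and Arid2, both −0.61.

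The 10 libraries between gave values that the choice of the sets did not use. The rho over all 28 libraries, by which Faah, Adnp2, Nbeal2, Arid2, Actn3, Daam2, Piezo2 and others were named, did use them. For genes named that way the 10 libraries are no independent check. The ratio of these 10 ran only from −2.54 to −1.69, and within them 55.4% of all genes had a rho with the ratio above 0. Of the other pericyte genes 12 of 18 (66.7%) did, and of the smooth muscle genes 7 of 12 (58.3%), with median rho values of 0.07 and 0.08 against 0.04 over all genes. Of the 23 genes named above from outside the lists, 11 had a rho in these 10 libraries with the sign of their fold change. Among these were Faah (0.62), Adnp2 (0.43), Elavl1 (0.37), Nbeal2 (−0.55), Arid2 (−0.49) and Actn3 (−0.39), whereas Daam2 had −0.13, Piezo2 0.16 and Tmcc1 0.61. Nid1 had 0.38. With the sets rebuilt on the ratio without Higd1b and Egfl7, the medians of the other pericyte and smooth muscle genes were 0.73 and 0.72, and Notch3, Nid1 and Daam2 had log2 fold changes of 1.20, 1.26 and 1.65. Other differences shrank, that of Ednra from 1.32 to 0.81, of Prps2 from 2.87 to 1.07, of Elf4 from −2.45 to −0.39 and of 4921507P07Rik from −2.36 to −0.63, and Atp13a5 turned to −0.04. Of the 23 genes 22 could be fitted, all 22 kept their direction, and 13 had a smaller fold change. The rebuilt sets shared 5 high-ratio and 8 low-ratio libraries with the original sets, in which these genes were picked. Agreement in direction was thus partly set in advance and is no separate test.

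The labels of the rats were not used in choosing the libraries, and 7 relations with them were tested as 1 family. Acellular capillary density was 8.64 ± 2.60 per mm2 in the high-ratio and 12.8 ± 4.35 in the low-ratio rats (SD, n = 9 each), a difference of −4.12 with an exact two-sided permutation p of 0.0287. After Benjamini-Hochberg adjustment over the 7 tests p was 0.201, so the difference did not pass the correction. Density ran from 5.90 to 12.6 per mm2 in the high-ratio rats and from 6.03 to 17.9 in the low-ratio rats. The 3 pre-dropout rats T389M, T391M and T407M supplied the highest values. Among rats of normal density the means were 8.64 and 10.2 per mm2, with an exact permutation p of 0.265. Within males the difference was −6.84 (exact permutation p = 0.0857, n = 4 and 4) and within females −1.93 (exact permutation p = 0.278, n = 5 and 5).

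Over all 28 rats the ratio had a Pearson r of −0.32 with density (permutation p = 0.0915, adjusted p = 0.220) and a Spearman rho of −0.30 (permutation p = 0.127). When the 2 rats with the densities farthest from the median were left out, r was −0.21. Within 12 males r was −0.54 (permutation p = 0.0729), within 16 females −0.25 (permutation p = 0.357) and within the 24 rats of normal density −0.18 (permutation p = 0.396). The sign was the same in each, and none of these passed the test.

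Random blood glucose was 87.9 ± 56.3 mg/dL in the high-ratio and 181 ± 158 mg/dL in the low-ratio rats (SD, n = 9 each), an exact permutation p of 0.112 and an adjusted p of 0.220. The 5 rats above 200 mg/dL stood apart from the rest, and 3 of them, T389M, T446M and T391M, were low-ratio, while T370M was high-ratio and T392F lay between. Over 28 rats r was −0.30 (permutation p = 0.126) and rho −0.33 (permutation p = 0.0933), and without the 2 farthest rats r was −0.12 and rho −0.23. Within the 23 rats at or below 200 mg/dL r was −0.07 (permutation p = 0.756) and rho −0.23 (permutation p = 0.301), so r, more than the rank relation, rested on the rats with high glucose. Within males r was −0.53 (permutation p = 0.0738) and rho −0.51, and within females r was −0.09 (permutation p = 0.762) and rho −0.26.

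**Figure D5:**
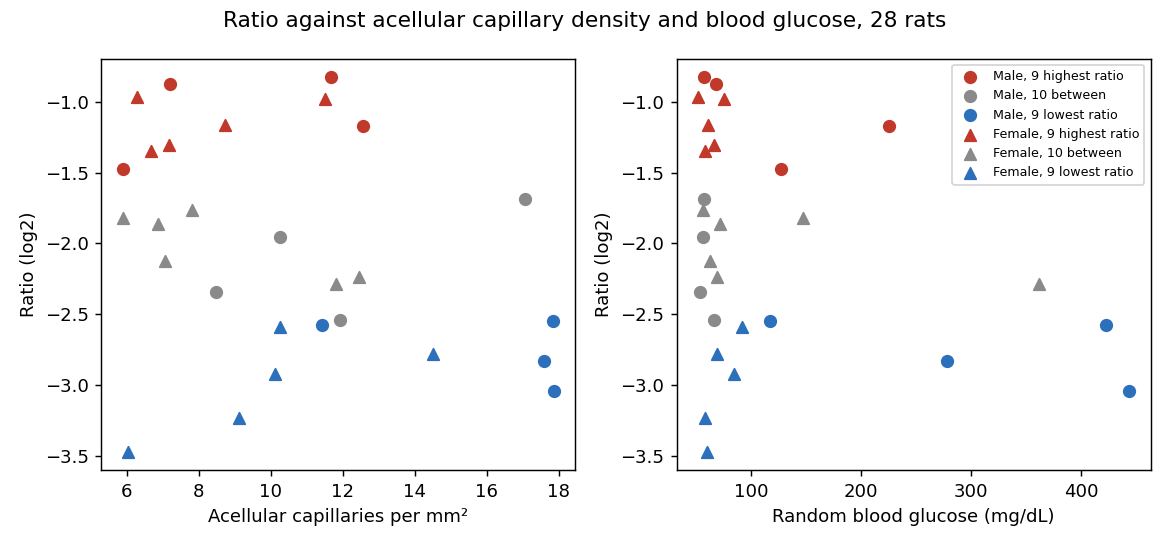
The ratio (log2 units) of each of the 28 rats against its acellular capillary density per mm2 (left) and random blood glucose in mg/dL (right), with circles for males, triangles for females and colors for the 9 highest, 10 middle and 9 lowest ratios. All rats but T398F and the 4 above 16 per mm2 lie at or below 12.6 per mm2, the high-ratio rats among them. Of the 4 rats above 16 per mm2, 3 are low-ratio. Pearson r was −0.32 with density and −0.30 with glucose.

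The pre-dropout rats had a mean ratio of −2.53 ± 0.595 (SD, n = 4) and the rats of normal density −1.94 ± 0.774 (SD, n = 24), a difference of −0.58 with an exact permutation p of 0.166 and an adjusted p of 0.233. All 4 pre-dropout rats were male and 16 of the 24 normal rats were female, and within males the difference was −0.81 (exact permutation p = 0.0889). T353M, at −1.69, lay above the mean of the normal rats, and the other 3 lay in the low-ratio set. Males and females differed by 0.07, −1.99 ± 0.771 (SD, n = 12) against −2.05 ± 0.794 (SD, n = 16), with a permutation p of 0.828, and each set held 4 males (Fisher's exact test, p = 1.0).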

How the data were processed

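RNA of the isolated retinal vasculature was sequenced from 28 rats. The authors deposited expected counts per gene, which are estimates with fractions and not scaled between libraries, and TPM, transcripts scaled to gene length and to the same sum in each library. Both tables list 18970 genes by mouse symbol, as the comparative RNA-seq pipeline of the study gives them, and the study's later genome-based values were not used here. The aligner, versions and genome build behind these tables are not given in the sources used here, so no coordinates are printed. The unit of glucose is that of the study's methods.

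The ratio was computed from TPM with a pseudocount of 1. Expected counts were rounded, scaled by TMM over all 28 libraries and filtered with filterByExpr (minimum count 10) in edgeR 4.0.16 (R 4.3.3), and a quasi-likelihood fit over the 18 libraries gave log2 fold changes and standard errors. No p-value was taken from it. Labels were compared by exact permutation tests, 100000 permutations for correlations and for males against females, or Fisher's exact test, all two-sided and adjusted by Benjamini-Hochberg over the family. Alternatives were pseudocounts of 0.1 and 10 TPM, markers scaled to their SD, thinning, a depth limit, 7 against 7 libraries, no filter, DESeq2 1.42.0 size factors and fold changes, log2(TPM + 1), sex as a covariate, and ratios without single markers. The fold change and test code was tested on simulated data. Each rat gave 1 library, so the spread covers animal and library together, and depth was 153108 to 10029198 counts.

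Named genes were the 12 markers, the 2 members of each of 19 lists with the largest fold change, the 10 higher and 10 lower genes with the least overlap among those at least 2-fold different, and the 5 highest and 5 lowest rho values. Other list members were named for their role or after their values were seen. The ratio, lists and rules were chosen with earlier results of these data known. The 80% limit and the ratios without single markers were chosen after seeing the data.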

Additional observations from a re-analysis of the deposited data

Results flagged for a closer look

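Dixon's test was applied to 54 groups of values with 4 or 9 rats each, and 4 values lay far from the rest of their group. Chance gives about 1 in 20, a rate that need not hold for the values by which the high-ratio and low-ratio sets were chosen. T370M had a random blood glucose of 226 mg/dL in the high-ratio set, where the next value was 127 mg/dL. T448M had 292 TPM of Higd1b in the same set, where the next was 67.3 TPM. In the pre-dropout group T353M had 229 TPM of Pdgfrb, where the next was 62.8 TPM, and 1317 TPM of Cdh5, where the next was 633 TPM.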

How the results depend on the processing

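No paired analysis was possible because each rat gave 1 library. The limit of 0.05 is applied here to unadjusted permutation p-values. Of the values that answer a comparison, 111 kept their side of the limit or their count under an alternative, 8 lost it, 9 gained it and 4 counts moved. The density difference of −4.12 between the sets became −3.10 with a pseudocount of 0.1 TPM (exact permutation p = 0.0759). With libraries of at least 1000000 counts it was −3.20 (exact permutation p = 0.108). That limit left out T410F and T448M, and 9 and 9 libraries were chosen again. T353M, a pre-dropout rat, thus entered the high-ratio set and T447M the low-ratio set. The density difference was −2.87 after thinning to the smallest library (exact permutation p = 0.144) and −2.44 without Higd1b (exact permutation p = 0.223). It was −2.91 with 7 against 7 libraries (exact permutation p = 0.162), besides −1.61 in rats of normal density, −6.84 in males and −1.93 in females. It was −3.82 (exact permutation p = 0.0383) without Higd1b and Egfl7. The glucose difference became −123 mg/dL without Cspg4 (exact permutation p = 0.0448). The r of the ratio with density became −0.39 with a pseudocount of 10 TPM (permutation p = 0.0402) and −0.38 without Higd1b (permutation p = 0.0459). The r with glucose became −0.38 with 10 TPM and −0.38 with markers scaled to their SD (permutation p = 0.0474 and 0.0465), and −0.40 without Higd1b and Egfl7 (permutation p = 0.0342). For the Spearman rho in the same settings, permutation p stayed above 0.05, at 0.0524 and 0.166 for density. For glucose the permutation p of rho was 0.137, 0.0900 and 0.0691 in the same order. The pre-dropout difference became −0.62 with 10 TPM, −0.75 without Higd1b and −0.66 without Higd1b and Egfl7 (exact permutation p = 0.0437, 0.0260 and 0.0289), and ran from −0.86 without T353M to −0.41 without T389M when each of the 4 rats was left out (exact permutation p = 0.0694 to 0.391). None of these p-values was adjusted, and the causes were not tested. The difference between males and females changed sign to −0.06 with 10 TPM and to −0.15 without Higd1b.

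Genes at least 2-fold different without overlap numbered 0 under most settings, but 6 higher and 2 lower with 7 against 7 libraries, 1 lower (Piezo2) with libraries of at least 1000000 counts and 1 higher (Daam2) without Egfl7. For genes the depth limit kept the original sets without T410F and T448M, 8 against 8 libraries. Genes at least 2-fold higher numbered 2032 and lower 2974 with no filter on low counts, 603 and 749 with 7 against 7 libraries, 613 higher by log2(TPM + 1) and 809 lower without Higd1b. The rod and cone median turned to −0.07 by log2(TPM + 1). The medians of the other endothelial, barrier and basement membrane genes turned to −0.02 with DESeq2 size factors, and those of the signaling genes to −0.01 and the immediate early genes to 0.03 with libraries of at least 1000000 counts.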
